A study of Mus musculus with 6 samples.

Results

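Circular RNAs (circRNAs) of 60 genes for extracellular matrix proteins and integrins were examined in whole mouse ovaries. The members were chosen by host gene name, and 50 of the 60 genes had at least 1 row in the deposited circRNA table, with 314 circRNAs among the 27999 circRNAs of 7411 hosts. No circle was listed for Col25a1, Col4a6, Col5a2, Col6a1, Eln, Fn1, Itga4, Lox, Postn and Thbs2. The study compared ovaries of C57BL/6 mice at postnatal day 5 (neonatal, n = 3) and at 6 weeks (adult, n = 3), with no other genotype or treatment named in the labels. All RNA was digested with RNase R, which removes linear RNA, before strand-specific random-primed libraries were made, so the values describe RNase R-resistant RNA of both groups. The labels do not say whether a library came from 1 animal or from pooled ovaries, so the p-values measure only spread among libraries, possibly technical spread. In whole ovaries, fewer cells of a type and less of a circle per cell cannot be told apart.

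The extracellular matrix is the protein scaffold around cells. Laminins, type IV collagens, nidogens and heparan sulfate proteoglycans form basement membranes, which in the ovary surround follicles, vessels and the surface epithelium. FRAS1 and the FREM proteins form a complex at embryonic basement membranes, fibrillar collagens and fibrillin microfibrils build the stroma, and integrins are the cell surface receptors that bind many of these proteins. An exonic circRNA arises when the end (splice donor) of an exon is joined to the start (splice acceptor) of the same or an earlier exon. It therefore reports on splicing of the host transcript as well as on the amount of that transcript.

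The authors' deposited table compares a group headed A with a group headed B. No source used here says which age either letter denotes, so no direction below refers to age. Per circRNA, the table holds a log2 fold change (A over B), a p-value and an adjusted p-value. A p of 0.423 is what an unequal-variance test returns when a single library of the 6 holds a value, and circRNAs at this p were taken as seen in a single library. By that criterion 233 of the 314 member circRNAs (74.2%) rested on a single library, against 62.0% of the whole table, and 81 (25.8%) on 2 or more libraries, against 38.0%. No value per library was used, so levels and depths of single libraries are not given.

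In all 314 circRNAs, no adjusted p in the authors' deposited table was below 0.522, and the smallest in the whole table was 0.425. Of the other genes, 7 of 14 ovary markers (Amh, Cyp19a1, Lhcgr, Inha, Zp2, Zp3 and Ddx4) had a listed circle and Fshr, Foxl2, Inhba, Gdf9, Bmp15, Nobox and Figla had none. A listed circle was found for 8 of 8 endothelial cell genes, 3 of 8 smooth muscle cell and pericyte genes, 4 of 8 surface epithelium and mesothelium genes, 1 of 6 leukocyte genes and 0 of 6 oviduct and fat genes. Few circRNAs of these lists were seen in 2 or more libraries. Their side was A for 2 of 5 ovary, 4 of 6 endothelial, and 1 of 2 smooth muscle and pericyte circRNAs. It was A for 4 of 5 surface epithelium and mesothelium and 1 of 1 leukocyte circRNAs. Over the whole table, the side was A for 70.1% of circRNAs seen that often, and counts this small cannot show a difference from that share. The part of cell composition in the results below was not tested.

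The circles were spread unevenly over the hosts. Frem1 and Itga9 had 28 listed circRNAs each, Lama2 had 27 and Lama1 had 19, and these 4 hosts gave 102 of the 314 circRNAs (32.5%). Hspg2 followed with 15, Fbn2 with 13, Fras1 with 12 and Lamb1 with 11. The median was 5 circRNAs per member host, against 2 over all hosts. Member hosts are long genes, with a median of 37 exons in their main isoform against 13 over all hosts. Among the 335 hosts of the table with 37 or more exons the median was 7 circRNAs, against 5 for the 25 members of that size.

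**Figure D1:**
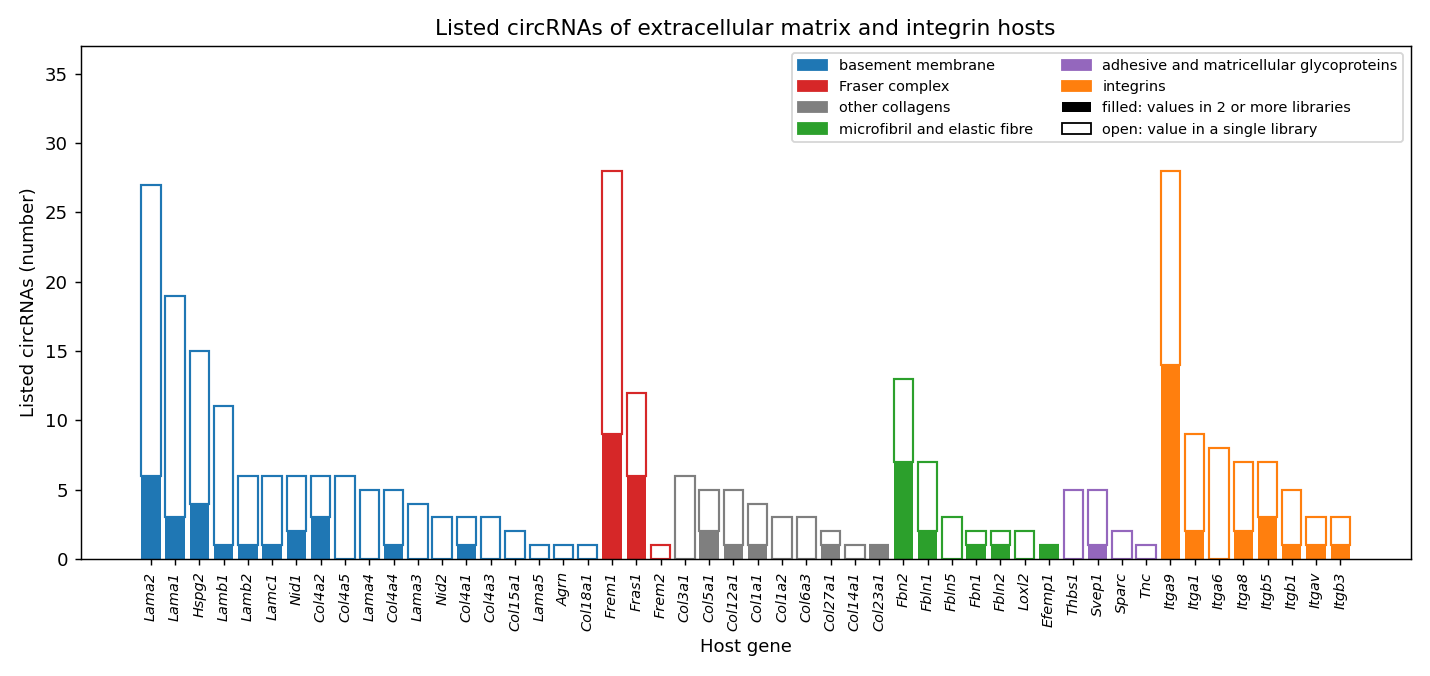
Number of listed circRNAs (y axis) for each of the 50 host genes (x axis), coloured by role, with filled bars for circRNAs seen in 2 or more libraries and open bars for those in a single library. Frem1, Itga9 and Lama2 stand above the rest with 28, 28 and 27 circRNAs, and Itga9 has the tallest filled bar (14).

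Of the 81 member circRNAs with values in 2 or more libraries, 63 lay higher in A (77.8%, exact 95% interval 67.2 to 86.3, counting error only) in the authors' deposited table, against 70.1% of all such circRNAs. Circles of 1 host often share splice sites, so these 81 are not independent. Among the 49 with values in both groups, 32 were higher in A, which is 65.3% against 67.3% in the whole table. Their median log2 fold change was 0.48, against 0.42 over the table. The other 32 had values in 1 group, 31 in A and 1 in B, where the whole table had 2001 and 536 such circRNAs. Counting all listed circRNAs, 72.9% leaned to A, against 66.0% of the table.

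The authors' deposited table marked 4 member circRNAs (1.27%) as different (p under 0.05 and a log2 fold change of 1 or more in size), and all 4 were higher in A. Marked circRNAs made up 1.75% of the whole table, 1.23% higher in A and 0.521% higher in B. Of circRNAs seen in 2 or more libraries, 4 of the 81 members were marked, against 489 of 10644 (4.59%) in the whole table. The 4 belonged to Fras1, Lamb2, Fbn2 and Svep1. In addition, a circRNA of Lama1 had p under 0.05 with a smaller fold, higher in B. This brings the members under 0.05 to 5 (1.59%), against 1.95% of the whole table. Among circRNAs seen in 2 or more libraries these were 5 of 81 members, against 545 of 10644 (5.12%) in the whole table. None is set apart by its adjusted p.

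The back-splice junctions of 4 of these 5 circles are printed because the junction is the sequence that tells the circle from its linear host RNA. Each line gives the last 20 bases of the final exon in lower case, followed by the first 20 bases of the first exon in capitals, from GENCODE M21 transcripts of GRCm38, 5′ to 3′ on the host strand.
Fras1 circRNA2165: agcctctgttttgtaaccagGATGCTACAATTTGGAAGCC
Lamb2 circRNA3434: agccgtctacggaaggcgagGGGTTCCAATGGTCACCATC
Svep1 circRNA2340: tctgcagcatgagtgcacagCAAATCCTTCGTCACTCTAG
Lama1 circRNA925: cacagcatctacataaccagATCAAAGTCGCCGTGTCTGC

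Circles of the Fraser complex genes stood on the A side in every case with values in 2 or more libraries (15 of 15, against 70.1% of all such circRNAs). Both hosts behind that count have circles that share splice sites. Of the 15, 11 had values in A only, so they could not fall on the B side. The 4 with values in both groups were all higher in A, against 67.3% of such circRNAs in the whole table. FRAS1 and FREM1 are matrix proteins whose loss separates the epidermis from the dermis in mouse embryos. Fras1 circRNA2165, exons 3 to 6 of 74 (chr5:96528501-96545083, plus strand, 495 nt of coding sequence), was placed at 3.66 on the log2 scale by the authors' deposited table, 12.6-fold higher in A (p = 0.00207, adjusted p = 0.522). Its donor is also used by circRNA9247 (exons 4 to 6), which the authors' deposited table lists in A alone (p = 0.185), and its acceptor by circRNA9246 (exons 3 to 5), which it places at 1.85 (p = 0.55). Further along the gene, circles of exons 7 to 15, 15 to 18 and 19 to 20 had values in A only, with p from 0.186 to 0.21 in the authors' deposited table. Of all 12 listed Fras1 circles, 10 leaned to A and 2 to B, both of the latter seen in a single library.

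Frem1 had all of its 28 listed circRNAs on the A side, against 66.0% of all listed circRNAs. Among the 4787 hosts with 2 or more listed circRNAs, 1149 had all of theirs on the A side. Of the 28 Frem1 circRNAs, 19 were seen in a single library. Of the other 9, 7 had values in A only and 2 in both groups. The 2 with values in both groups were circRNA9869 (exons 20 to 25 of 37, 1365 nt) at a log2 fold of 2.63 (p = 0.232) and circRNA17897 (exons 2 to 5, which hold the start codon) at 2.11 (p = 0.525) in the authors' deposited table. Across Frem1 circles, the smallest p in the authors' deposited table was 0.184 (circRNA9879), and none was marked. The circles overlapped heavily, and 27 of the 28 shared a splice site with another Frem1 circle. Such sharing was found for 59.2% of all member circRNAs and 63.9% of the whole table. Hosts with as many circles were not compared. The acceptor of exon 17, behind an intron of 11049 nt, began 8 of the Frem1 circles. These ended at exons 19, 21, 22, 23, 24, 25, 30 and 35. Of these junctions, 3 are shown to make the shared acceptor visible, with the donor side in lower case and the first 20 bases of exon 17 in capitals, on the minus strand of chromosome 4.
Frem1 circRNA9879, exons 17 to 19: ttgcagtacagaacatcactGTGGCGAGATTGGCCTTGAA
Frem1 circRNA9876, exons 17 to 22: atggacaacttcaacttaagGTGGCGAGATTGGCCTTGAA
Frem1 circRNA9866, exons 17 to 35: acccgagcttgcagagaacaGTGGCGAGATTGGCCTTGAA

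The circles that begin at exon 17 ran from 578 nt (circRNA9879) to 3322 nt (circRNA9866) of exonic sequence. Frem2, which belongs to the same complex, had a single circle of exons 3 to 6 (756 nt) in a single library, on the A side.

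**Figure D2:**
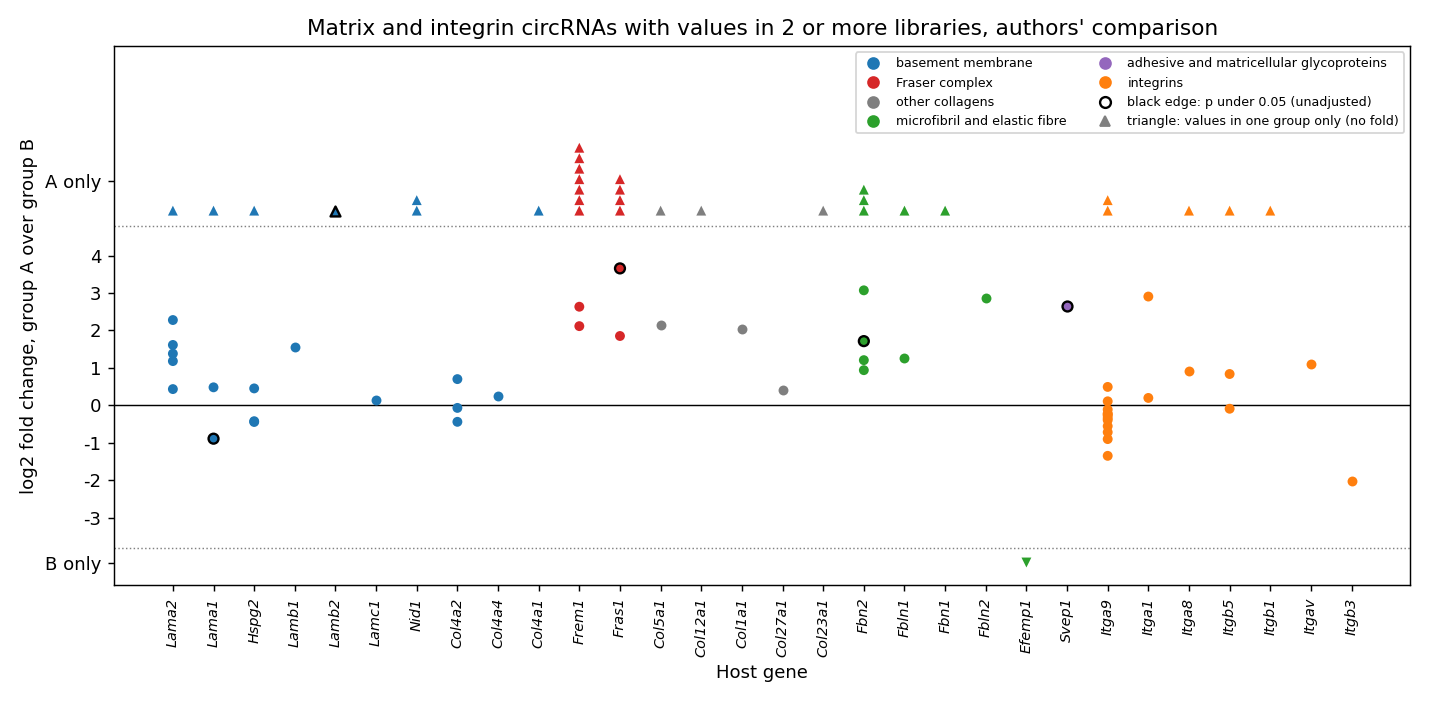
Log2 fold change of group A over group B in the authors' deposited table (y axis) for the 81 member circRNAs seen in 2 or more libraries, by host gene (x axis). Circles are finite fold changes, triangles beyond the dotted lines are circRNAs with values in 1 group and have no fold, and black edges mark unadjusted p under 0.05. Frem1, Fras1 and Fbn2 lie wholly above 0, and Itga9 lies mostly below 0.

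Basement membrane genes gave 130 circRNAs from 19 of 20 genes, 107 of them (82.3%) in a single library. Of the 23 with values in 2 or more libraries, 18 lay higher in A (78.3%, against 70.1% of all such circRNAs). Of these, 7 had values in A only. Among the 16 with values in both groups, 11 were higher in A (68.8%, against 67.3% in the whole table). Laminins are cross-shaped trimers of an alpha, a beta and a gamma chain, and the circles of their chains did not share 1 side. For Lama2, an alpha chain gene known from muscle basement membranes, 24 of the 27 circles leaned to A, against 66.0% of all listed circRNAs. The 24 include all 6 with values in 2 or more libraries. The 5 Lama2 circles with values in both groups stood between 0.43 and 2.28 on the log2 scale in the authors' deposited table. At the upper end was circRNA5488, exons 2 to 4 of 65, and at the lower end circRNA5489, exons 2 and 3, which starts at the same acceptor. The authors' deposited table gives them p = 0.258 and p = 0.707.

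Lama1, the alpha chain gene of early embryonic basement membranes, was split. Its circRNA925, exons 45 and 46 of 63 (chr17:67800759-67803029, plus strand, 278 nt of coding sequence), was placed at -0.89 on the log2 scale by the authors' deposited table, 1.86-fold higher in B (p = 0.0189, adjusted p = 0.522). A Lama1 circle of exons 18 to 24 (circRNA6116) stood at 0.48 (p = 0.765), and circRNA6117 (exons 27 to 30) had values in A only (p = 0.184) in the authors' deposited table. Of the 16 Lama1 circles in a single library, 13 were on the A side and 3 on the B side.

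Lamb2, which encodes a beta chain, had its only circle with values in 2 or more libraries in A only. This was circRNA3434, exons 5 and 6 of 33 (chr9:108480756-108481422, plus strand), with p = 0.00611 and adjusted p = 0.522 in the authors' deposited table. The introns on either side of it measured only 82 and 81 nt. The whole circle of 263 nt is printed because it lies between such short introns, with exon 5 in lower case and exon 6 in capitals.
Lamb2 circRNA3434, whole circle: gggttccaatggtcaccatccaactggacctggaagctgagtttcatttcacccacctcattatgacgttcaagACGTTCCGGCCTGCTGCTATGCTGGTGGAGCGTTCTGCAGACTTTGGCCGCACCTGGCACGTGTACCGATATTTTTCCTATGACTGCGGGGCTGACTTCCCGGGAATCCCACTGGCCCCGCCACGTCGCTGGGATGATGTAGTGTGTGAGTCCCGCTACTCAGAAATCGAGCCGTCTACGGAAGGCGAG

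The other Lamb2 circles were seen in a single library, 3 on the A side and 2 on the B side. All 11 circles of Lamb1, also a beta chain gene, leaned to A, against 66.0% of all listed circRNAs. Of the 11, however, 10 rested on a single library. The remaining one, circRNA13501 (exons 23 and 24 of 34), stood at a log2 value of 1.55 (p = 0.586) in the authors' deposited table. Lamc1, the common gamma chain gene, had 4 of 6 circles on the A side and its circRNA3164 (exons 17 and 18) at 0.15 (p = 0.774) in the authors' deposited table. Lama4, the alpha chain gene of vessel walls, had 5 circles, 2 toward A and 3 toward B, each in a single library. Lama3 had 4 (2 toward each side) and Lama5 had 1, toward B, also in single libraries.

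Nid1 and Nid2 encode nidogens, which link laminin to type IV collagen. All 9 of their circles lay on the A side, 6 for Nid1 and 3 for Nid2, against 66.0% of all listed circRNAs. Of the Nid1 circles, 2 had values in 2 or more libraries, in A only, with p = 0.185 each in the authors' deposited table. They were circRNA3919 (exons 2 to 4 of 20, 904 nt) and circRNA3920 (exon 4 alone, 377 nt), and they share the donor of exon 4. Hspg2, which encodes the proteoglycan perlecan, had 15 circRNAs, 7 toward A and 8 toward B. Its circles of exons 34 to 36 and 34 to 37 of 97 stood at -0.45 (p = 0.708) and -0.42 (p = 0.849), and that of exons 15 to 17 at 0.45 (p = 0.692), in the authors' deposited table. Agrn, the agrin gene, had 1 circle, toward A in a single library.

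Type IV collagen genes, which build the basement membrane network, gave 23 circRNAs from 5 hosts. Col4a2 had 6 circRNAs, 3 toward each side, and Col4a5 had 6 (4 toward A, 2 toward B), each of the latter in a single library. Col4a4 had 5, of which circRNA3083 (exons 45 and 46) stood at a log2 value of 0.24 (p = 0.887) in the authors' deposited table. Col4a3 had 3 in single libraries. Col4a1 had 3, all toward A, and its circRNA12626 had values in A only (p = 0.187) in the authors' deposited table. At 96 nt this circle of exons 15 and 16 (chr8:11239134-11239877, minus strand) was the shortest exonic circle among the members, and it is shown whole, exon 15 in lower case and exon 16 in capitals.
Col4a1 circRNA12626, whole circle: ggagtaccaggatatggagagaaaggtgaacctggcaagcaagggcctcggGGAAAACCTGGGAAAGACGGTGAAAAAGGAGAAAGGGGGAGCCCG

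The remaining basement membrane collagens, Col15a1 (2 circRNAs) and Col18a1 (1), had single-library values in B only.

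Microfibril and elastic fibre genes had 30 circRNAs from 7 of 9 genes. Of the 12 with values in 2 or more libraries, 11 lay higher in A (91.7%, against 70.1% of all such circRNAs). Of the 11, 5 had values in A only and 6 in both groups, and 7 were circles of Fbn2. Fbn2, the fibrillin gene known mainly from developing tissues, gave 13 circles, of which 12 leaned to A, against 66.0% of all listed circRNAs. All 7 with values in 2 or more libraries did, 3 of them with values in A only. For Fbn2, 8 of the 13 circles shared a splice site with another. Its circRNA1556, exons 5 to 7 of 65 (chr18:58148991-58190336, minus strand, 420 nt of coding sequence), was placed at 1.71 on the log2 scale by the authors' deposited table, 3.28-fold higher in A (p = 0.0332, adjusted p = 0.522). A shorter circle with the same donor, circRNA1555 (exons 6 and 7), stood at 3.07, 8.40-fold higher in A, but with p = 0.0688 it was not marked in the authors' deposited table. Also with that donor, circRNA16236 (exons 3 to 7) stood at 1.21 (p = 0.642) in the authors' deposited table. Near the other end of the gene, circRNA1554 (exons 60 and 61) was listed in A alone by the authors' deposited table (p = 0.0796). Fbn1, the fibrillin gene mutated in Marfan syndrome in humans, had only 2 circles. The Fbn1 circle of exons 9 and 10 of 66 had values in A only (p = 0.184) in the authors' deposited table, and the other was seen in a single library, in B.

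Fibulins are glycoproteins of elastic fibres and basement membranes. Fbln1 had 7 circRNAs, 4 toward A and 3 toward B, and the circle of exons 15 and 16 (circRNA6850) stood at 1.27 (p = 0.419) in the authors' deposited table. Fbln2 circRNA8726 is exon 2 alone (1289 nt, holding the start codon) and stood at 2.87 (p = 0.48) in the authors' deposited table. All 3 circles of Fbln5 were on the A side in single libraries. Efemp1, a further fibulin gene, gave the only member circRNA with values in 2 or more libraries that were all in B, circRNA20646 of exons 3 and 4 (p = 0.184 in the authors' deposited table). The lysyl oxidase gene Loxl2, whose product crosslinks collagen, had 2 circles, 1 toward each side in single libraries.

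Fibrillar and other collagen genes gave 30 circRNAs from 9 of 12 genes, and 9 of the 30 were intronic circRNAs (ciRNAs), which made up 6.63% of the whole table. All 6 seen in 2 or more libraries lay higher in A, as did 70.1% of all such circRNAs. Of the 6, 3 had values in A only and 3 in both groups. Col5a1, which encodes a collagen that starts fibril assembly, had 5 circRNAs. Its circRNA2743, exons 2 to 4 of 66 (chr2:27922017-27929541, plus strand, 545 nt), stood at 2.15, 4.45-fold higher in A, with p = 0.0556 in the authors' deposited table. Col12a1 and Col3a1 had 5 and 6 circRNAs, with 4 toward A in each. A Col12a1 circle of exons 37 to 42 had values in A only (p = 0.185), as had a Col23a1 circle of exons 9 to 15 (p = 0.188), in the authors' deposited table. Col27a1 circRNA9829 stood at 0.40 (p = 0.729) in the authors' deposited table. Col1a1 had 4 circRNAs, of which 3 were ciRNAs. Col1a2 and Col6a3 had 3 circRNAs each and Col14a1 had 1, all in single libraries. The longest member circle by exonic length came from Col6a3, with 24 exons and 6101 nt, in a single library.

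The ciRNAs of the members numbered 30, from 17 hosts, with a median span of 512 nt against 415 nt for all ciRNAs. Hspg2 had 5, Col1a1, Lama1 and Thbs1 had 3 each, and 28 of the 30 were seen in a single library. The exceptions were Col1a1 ciRNA92 (intron 46 of the type I collagen gene, chr11:94949774-94950095) at a log2 fold of 2.04 (p = 0.531) and Col4a2 ciRNA63 (intron 17) at 0.70 (p = 0.39) in the authors' deposited table. Col1a1 ciRNA733 has the same start and ends 1 nt further along, at 94950096, and was listed in a single library, in B. Whether both rows stem from the same molecule was not tested.

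Adhesive and matricellular glycoproteins were the most sparsely covered group, with 13 circRNAs from 4 of 7 genes. Of these, 12 (92.3%) were in a single library. Svep1, which encodes a large extracellular protein that binds integrin alpha 9, had 5 circles, all on the A side. Its circRNA2340, exons 2 and 3 of 48 (chr4:58175931-58179707, minus strand, 433 nt of coding sequence), was placed at 2.66 on the log2 scale by the authors' deposited table, 6.30-fold higher in A (p = 0.0388, adjusted p = 0.522). Thbs1, the thrombospondin gene, had 5 circRNAs of which 3 were ciRNAs, Sparc had 2 and the tenascin gene Tnc had 1, all in single libraries.

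Integrin circles lay on both sides. The 70 circRNAs came from 8 of 9 genes, and of the 24 with values in 2 or more libraries, 12 lay higher in A and 12 in B, against 70.1% higher in A among all circRNAs seen that often. The 46 in a single library were 31 on the A side and 15 on the B side. None was marked, and none had p under 0.05. Among the 19 with values in both groups the median log2 fold change was -0.22 in the authors' deposited table, against 0.42 over the table. Most of the circles higher in B came from Itga9, which encodes the alpha 9 chain. Of its 14 circles with values in 2 or more libraries, 10 lay higher in B, and without Itga9 8 of the other 10 integrin circles were higher in A. No test of the difference between Itga9 and the other integrins was made.

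The 12 Itga9 circles with values in both groups had log2 fold changes from -1.35 to 0.49 in the authors' deposited table. The smallest p was that of circRNA3462 (exons 12 to 15 of 28, 453 nt), at -0.28 (p = 0.203), followed by circRNA12588 (exons 14 and 15) at -0.72 (p = 0.333) and circRNA12583 (exons 5 to 15) at -1.35 (p = 0.403) in the authors' deposited table. Those that leaned to A among them were circRNA12585 (exons 6 to 15, 0.49, p = 0.759) and circRNA3460 (exons 9 to 11, 0.11, p = 0.841) in the authors' deposited table. Of the 12, only circRNA12583 passed a log2 fold change of 1 in size. All 28 Itga9 circles shared a splice site with another, against 63.9% of circRNAs in the whole table. The donor of exon 15, in front of an intron of 70617 nt, ended 9 Itga9 circles, and the donor of exon 11 ended 5. The junctions of 4 circles with the exon 15 donor are shown, the end of exon 15 in lower case and the start of the acceptor exon in capitals, on the plus strand of chromosome 9.
Itga9 circRNA12583, exons 5 to 15: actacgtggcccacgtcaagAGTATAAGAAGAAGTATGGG
Itga9 circRNA12587, exons 9 to 15: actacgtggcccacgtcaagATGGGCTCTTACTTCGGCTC
Itga9 circRNA3462, exons 12 to 15: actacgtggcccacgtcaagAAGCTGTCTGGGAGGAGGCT
Itga9 circRNA12588, exons 14 to 15: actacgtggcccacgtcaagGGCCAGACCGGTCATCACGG

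Circles with the exon 15 donor went to both sides. Of the 5 with values in 2 or more libraries, 2 lay higher in A, one of them circRNA12587 with values in A only (p = 0.185 in the authors' deposited table), and 3 were higher in B.

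Among the other integrin genes, Itga1 (a collagen receptor chain) had 9 circles, 7 toward A. Its circRNA220, exons 2 to 6 of 29, stood at 2.90 (p = 0.478), whereas circRNA4251, exons 3 to 6 with the same donor, stood at 0.20 (p = 0.865) in the authors' deposited table. All 8 circles of Itga6, a laminin receptor chain, leaned to A, each in a single library, against 63.5% of all single-library circRNAs. Itga8 had 7 (6 toward A), with circRNA2702 of exons 3 to 13 in A only (p = 0.245) in the authors' deposited table. Itgav, a chain that pairs with several beta chains, had 3 circles toward A, of which circRNA2836 stood at 1.10 (p = 0.225) in the authors' deposited table. Itgb1, the beta chain shared by most matrix receptors, had 5 circles, 4 toward A, and Itgb5 had 7, 3 toward A. Itgb3 had 3, all toward B, among them circRNA5259 (exons 11 to 13 of 15) at -2.03, 4.07-fold higher in B (p = 0.147) in the authors' deposited table. This was the only member circRNA with values in both groups at or below -2, while 10 stood at 2 or above. Together these were 22.4% of the 49. Over all circRNAs with values in both groups, 9.53% reached a log2 fold change of 2 in either direction. Of these member circRNAs, only Fras1 circRNA2165 and Svep1 circRNA2340 had p under 0.05 in the authors' deposited table. The largest p among them was 0.531 (Col1a1 ciRNA92), and circles of 1 host are not independent.

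**Figure D3:**
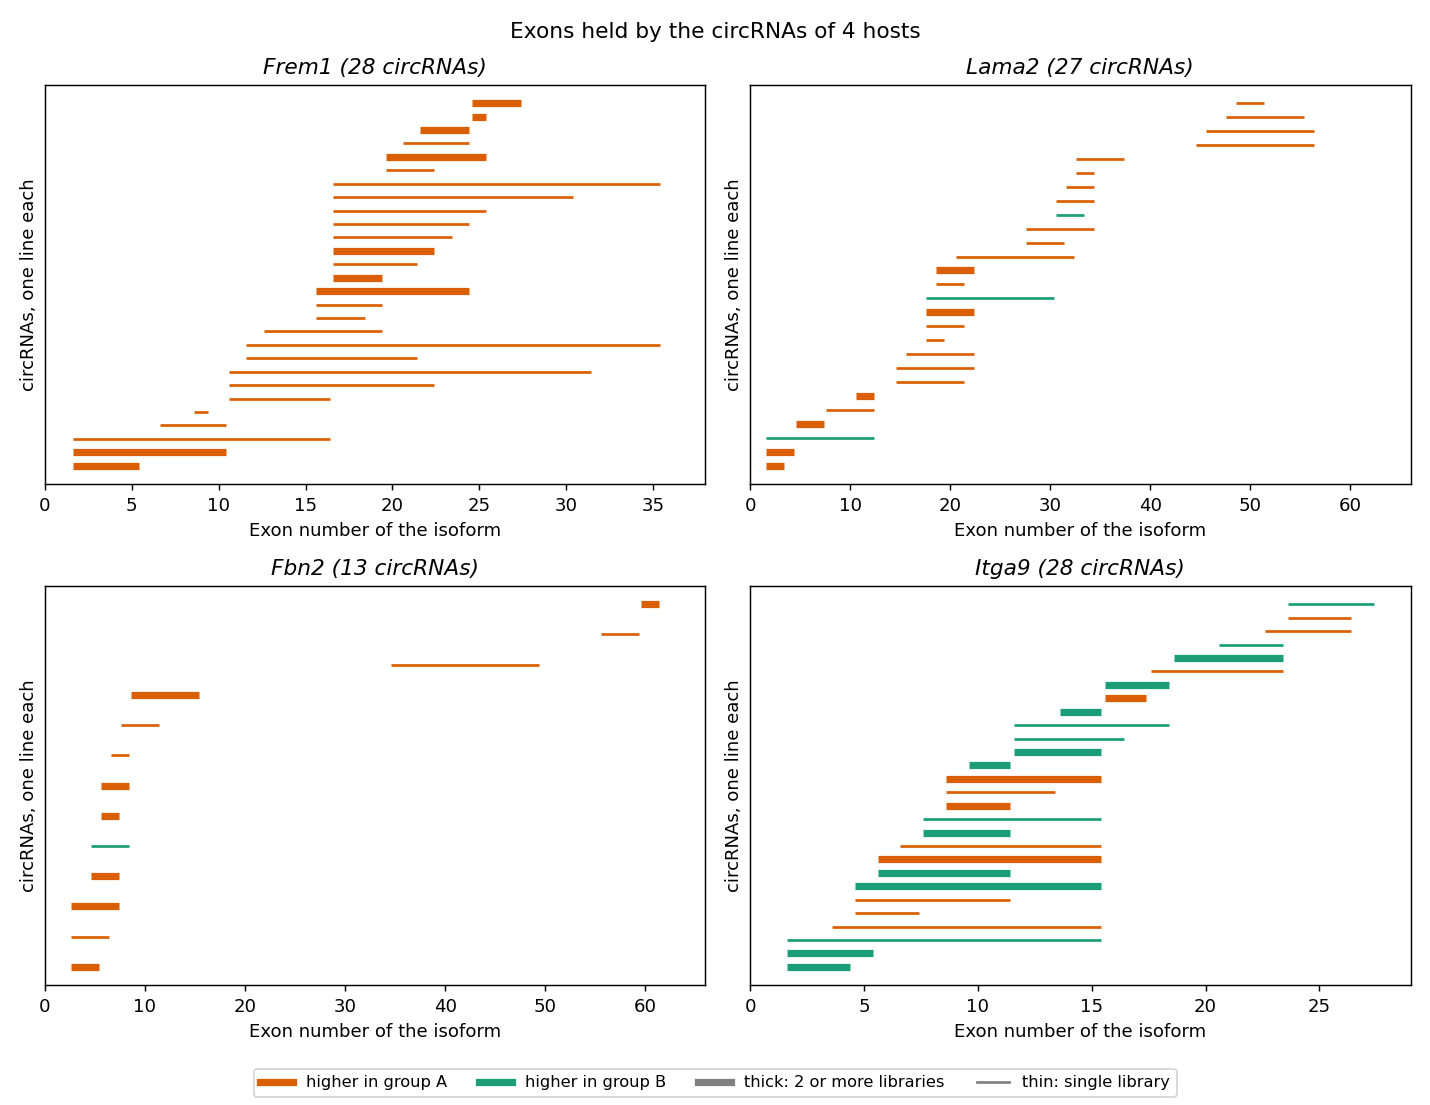
Exons held by each listed circRNA of Frem1, Lama2, Fbn2 and Itga9, with the exon number of the isoform on the x axis and 1 line per circRNA, coloured by the side on which the authors' deposited table puts it. Thick lines have values in 2 or more libraries. All 28 Frem1 lines lie on the A side with 8 starting at exon 17, and 9 Itga9 lines end at exon 15.

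At host level, 30 hosts had a circRNA with values in 2 or more libraries. All such circles were higher in A for 23 of them and higher in B for 2 (Efemp1 and Itgb3), and 5 had both sides (Lama1, Hspg2, Col4a2, Itga9 and Itgb5). Among all 4328 such hosts of the table the numbers were 2257, 991 and 1080.

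Exonic circles of the members held more exons than the table at large at the upper end. The median was 3.5 exons against 3 in the whole table, and 33 of 284 (11.6%) had 10 or more exons against 3.71%. The median exonic length was 497.5 nt against 469 nt. Circles of coding sequence alone made up 97.5% of the members against 83.6%, and those holding the start codon 2.11% against 10.3%. Of the members, 9.51% began at exon 2, against 23.4% in the whole table. No member circle held the stop codon. Member hosts have a median of 37 exons against 13 over all hosts, and circles of hosts with similar exon numbers were not compared here. Circles of the other matrix and matrix receptor genes outside the members had 10 or more exons in 11.6% and coding sequence alone in 97.3%, against 11.6% and 97.5% of the member circles.

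Exonic lengths that are a multiple of 3 nt, which keep the reading frame around the circle, were found in 135 of the 277 circles of coding sequence alone (48.7%), against 39.5% in the whole table and 67.0% for the other matrix and matrix receptor genes outside the members. Among the members, the share was 76.9% (20 of 26) for microfibril and elastic fibre genes, 73.7% (14 of 19) for the other collagens, 44.9% for integrins and 36.5% for basement membrane genes. All 13 Fbn2 circles had such a length. Fibrillins and fibrillar collagens are built of repeats encoded by exons that mostly keep the frame. Of internal coding exons, 95.2% for Fbn2 and 85.0% for the other collagens were multiples of 3, against 40.2% over all hosts. That share was 51.1% for basement membrane genes, which include the type IV collagen genes. Over all member hosts, 61.7% of internal coding exons were multiples of 3, above the 48.7% of the member circles, and for integrins 41.9% were. For Frem1, 14 of 25 circles of coding sequence alone had a length that is a multiple of 3, and 29.4% of its internal coding exons did. Whether any circle is translated was not measured.

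Introns beside the circles exceeded the isoform's remaining introns in length for 44 of 49 member hosts (89.8%), against 89.9% of all hosts. The median ratio of the mean flanking intron to the median other intron was 3.05 for members and 3.62 for all hosts. The order turned for circRNAs seen in 2 or more libraries, with 5.73 for 29 member hosts and 4.91 for all hosts. For those circRNAs, however, 86.2% of member hosts had a ratio above 1, against 92.4% of all hosts. Without circles starting at exon 2 the median ratios were 3.00 and 2.98. Ratios differed by role, with medians of 8.75 for microfibril and elastic fibre hosts, 5.30 for integrins and 2.43 for basement membrane hosts. Long introns stood beside several circles named above, with 149322 nt upstream of the Lama2 circles that start at exon 2 and 142400 nt upstream of Fras1 circRNA2165. A ratio below 1 was found for 5 hosts, namely Lama5 (0.62), Col4a1 (0.81), Fbln5 (0.87), Col1a2 (0.87) and Col27a1 (0.88).

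**Figure D4:**
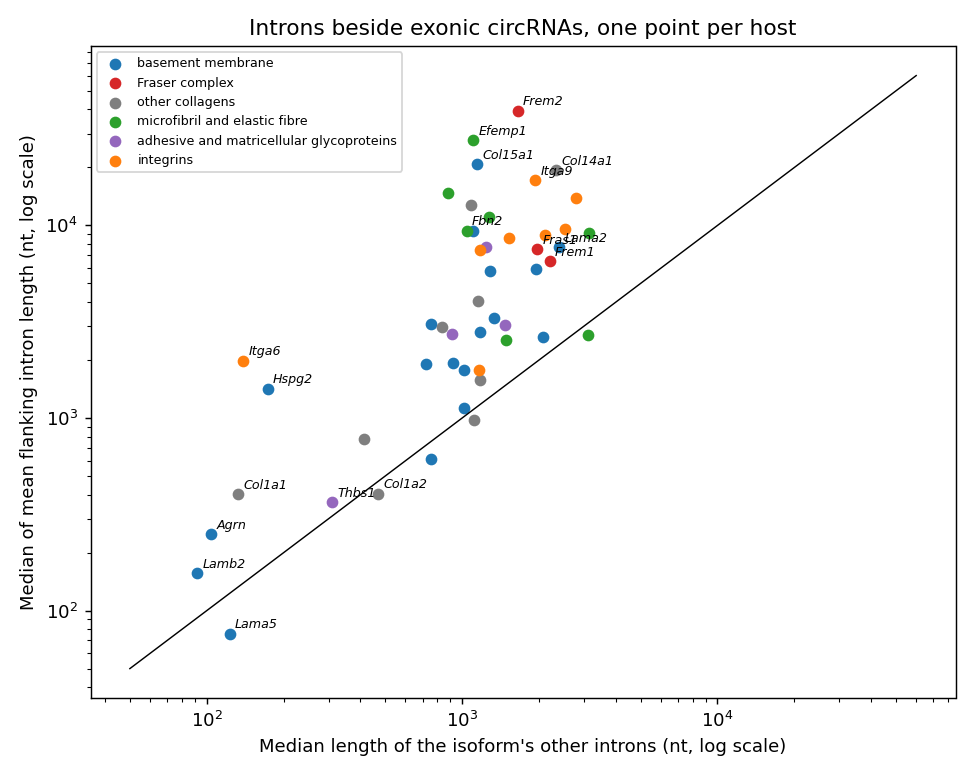
Median over a host's exonic circRNAs of the mean flanking intron length (y axis, nt, log scale) against the median length of the other introns of the isoform (x axis, nt, log scale), 1 point per host, coloured by role. The line marks equal lengths, and 44 of 49 hosts have a ratio above 1.

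Genes of the same pathways outside the members were counted for comparison. Focal adhesion and integrin adaptor genes had circles for 26 of 32 genes (192 circRNAs), and the authors' deposited table marked 3 (1.56%, against 1.75% of the whole table). Circles of Dock1, a Rac activator downstream of integrins, stood at 2.69 (exons 17 to 23, p = 0.0166) and 1.21 (exons 17 to 22, p = 0.0431) in the authors' deposited table. A circle of Vcl, the vinculin gene (exons 4 and 5), had values in B only (p = 0.0231) in the authors' deposited table. Of 63 further matrix and matrix receptor genes, 34 had circles (122 circRNAs), and 2 were marked (1.64%). These were Ltbp2 (in A only, p = 0.00168), whose product associates with microfibrils, and Matn2 (2.10, p = 0.0131) in the authors' deposited table. Matrix protease and inhibitor genes had circles for 20 of 29 genes (76 circRNAs). There the authors' deposited table marked 3 (3.95%), namely Adam10 (2.17, p = 0.0175), Mmp16 (in A only, p = 0.0364) and Adam22 (3.72, p = 0.047). The adjusted p of each was 0.522 in the authors' deposited table. Shares on the A side, for circRNAs seen in 2 or more libraries, were 79.2%, 62.2% and 71.4% in these 3 lists, against 70.1% in the whole table.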

How the data were processed

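Ovary RNA of both ages was sequenced after RNase R digestion, 3 libraries per age. The submitters' processing notes list GRCm38 and Bowtie 0.12.2 without saying what it was used for. No source used here gives the circRNA caller, filters or test. In the 2 deposited tables, 27999 circRNAs are listed and 1 line is empty. Per the file headers, the deposited log2 fold change compares groups headed A and B (checked to equal mean FPKM of A over that of B), and the deposited p-value and adjusted p-value (headed FDR) are per circRNA. The letters match no sample label, so 24 columns of values per library and 2 of group means gave no result here and nothing was refitted. Depth per library is therefore unknown here. Exonic circRNAs were placed on their named isoform in GENCODE M21 (GRCm38) where both ends met exon ends and the exon number agreed, which held for 25798 of 26144 and for all 284 members. Placement was tested on simulated isoforms. Per host, the flanking ratio is the median over circles of the mean flanking intron over the median of introns beside no listed circle. Members and gene lists were chosen with earlier results of these data known. Named were all hosts, all circRNAs with p under 0.05, those with values in both groups and a log2 fold change of 2 or more in size, hosts with 5 or more circRNAs, and marked circRNAs of the other lists. Junction sequences come from the GENCODE transcripts. A p of 0.423 (tolerance 1e-09) marked single-library circRNAs. Python 3.11.15, pandas 2.3.3 and scipy 1.17.1 were used.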

Additional observations from a re-analysis of the deposited data

How the results depend on the processing

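The count of 4 marked circRNAs was 5 by p under 0.05 with no fold, 3 among circRNAs with values in both groups and 4 among exonic circRNAs. It fell to 2 at p under 0.01 with the same fold (Fras1 and Lamb2) and to 0 at an adjusted p under 0.05 in the authors' deposited table, where 5 members had an unadjusted p under 0.05. No other tool was run. The share higher in A (77.8%) was 72.9% over all listed circRNAs, 84.8% as a mean over hosts and 75% without Frem1. It was 65.3% among circRNAs with values in both groups, 55.1% there after centring on the table's median log2 fold change of 0.42, and 88.1% without Itga9. The side of log2 fold changes between 0 and 0.42 therefore depends on that centring. The median flanking ratio (3.05) was 2.91 for the upstream intron, 2.71 for the downstream intron and 3.00 without circles starting at exon 2, and 5.73 for circRNAs with values in 2 or more libraries (29 hosts). The same settings gave 3.62 (main), 3.53, 2.71, 2.98 and 4.91 over all hosts, so members were not lower than all hosts under each. The causes of these shifts were not tested. No paired analysis was possible because the value columns match no sample, and leaving out replicates was not run for the same reason. Most member circles rest on a single library, and their side is that of 1 library.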
